A study of Mus musculus with 15 samples.

Results

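The tripartite motif (TRIM) genes described here are the 35 genes, of 11201 in the deposited table, whose mouse symbol begins with Trim followed by a digit. Its members were taken by symbol alone, but the family itself was chosen with earlier results of these data known. Messenger RNA was sequenced from microglia grown from mouse embryonic stem cells, abbreviated ESdM in the labels, a culture model of the resident immune cells of the brain. The starting stem cells were of the C57BL/6-ATCC line, and all libraries share this origin and the same N2 medium. In the first group, of 3 libraries, cells received LPS+IFNg, which is 500 ng/ml of the bacterial cell wall component lipopolysaccharide with 20 ng/ml of interferon gamma. A further 3 libraries came from cells given IL4 (interleukin 4) at 100 U/ml, and 3 from cells given TGFb (transforming growth factor beta) at 50 ng/ml. The remaining 6 libraries came from untreated cells, and each stimulus lasted 24 h. Separate cultures are not named for the replicates in the labels, so p-values cover the spread of these libraries alone, and that spread may be technical.

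TRIM proteins are ubiquitin ligases with a shared amino-terminal layout, a RING domain that binds the ubiquitin-conjugating enzyme, 1 or more B-box zinc fingers and a coiled coil, followed by a carboxy-terminal domain that sets the target. A few lack the RING. Many are induced by interferon and act on viral capsids or on the signalling proteins of nucleic acid sensing, such as RIG-I, MAVS and STING, while others silence chromatin, organise microtubules or degrade muscle proteins. In macrophages and microglia they are known mainly as restriction factors and as regulators of interferon and NF-kB signalling.

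The libraries held 2682564 to 18676181 reads, recovered from the normalized values. Replicate 3 of LPS+IFNg stood apart from the others of its group. Its reads differed from those of replicates 1 and 2 with a chi-square of 25.95 and 26.54 per degree of freedom, against 2.881 between replicates 1 and 2 and at most 7.567 between any other pair of libraries of the same group. TRIM calls that were lost without it are named below, as are those gained against untreated cells. Of 13 listed microglia and macrophage markers, 10 were in the table, and their summed level was 22270 to 24280 normalized read counts in LPS+IFNg libraries, 25172 to 25730 in IL4 libraries, 28872 to 30176 in TGFb libraries and 19979 to 21287 in untreated libraries. Tmem119 and Cx3cr1, which mark microglia of the adult brain, averaged 1.86 and 3.30 in LPS+IFNg libraries and 7.62 and 2.60 in untreated libraries, but 82.3 and 39.5 in TGFb libraries. Markers of embryonic stem cells, neurons and fibroblasts were not among the genes analysed here. Of 5 astrocyte markers, Slc1a2 and Aldh1l1 were in the table, with a summed level of 100.0 to 110.9 in LPS+IFNg libraries, 72.7 to 109 in IL4 libraries, 65.7 to 85.4 in TGFb libraries and 39.6 to 80.9 in untreated libraries. Of 3 endothelial markers, Pecam1 was in the table, at 6.02 to 15.8 in LPS+IFNg libraries, 1.41 to 2.39 in IL4 libraries, 1 to 2.32 in TGFb libraries and 1 to 1.89 in untreated libraries. The part of these markers in the results below was not tested.

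In untreated cells Trim28, Trim25 and Trim63 were the TRIM genes with the highest levels per kilobase of their longest annotated transcript. Trim28, also called KAP1, is the corepressor that zinc-finger proteins recruit to silence retroelements, and its level was 736 ± 14.8 normalized read counts per kilobase (SD, n = 6). Trim25, the ligase that attaches ubiquitin to the RNA sensor RIG-I, was at 480 ± 12.9, and Trim63, known in muscle as MuRF1, at 286 ± 30.6. The median of the 35 genes was 36.2 per kilobase, and Trim12a was lowest with 3.64 ± 1.05, 202-fold under Trim28. Trim28 and Trim25 did not overlap each other or the next gene over the 6 libraries, whereas Trim63 and Trim35, the next in order, did overlap. At the low end, the ranges of Trim46 and Trim12a overlapped. With the mean transcript length in place of the longest, Trim28 and Trim25 kept the first and the second place, and Trim63 moved to the sixth. Trim46 was then lowest, at 6.30 per kilobase, with Trim12a at 8.95 and Trim28 at 2366. The lowest gene and the fold span between highest and lowest thus rest on the length used.

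Under LPS+IFNg, per kilobase of the longest transcript, Trim25 led with 776 ± 50.6 per kilobase, followed by Trim13 with 586 ± 125 and Trim28 with 575 ± 31.04 (SD, n = 3 each). The ranges of Trim13 and Trim28 overlapped, and Trim25 lay above both. This order rests on the length used, since with the mean transcript length Trim28 came first, at 1849.5 per kilobase, ahead of Trim25 at 1034 and Trim13 at 599. Trim25 alone took 23.8% to 27.4% of the reads of all 35 genes in LPS+IFNg libraries, 21.6% to 23.3% in IL4 libraries, 15.2% to 16.2% in TGFb libraries and 17.5% to 18.8% in untreated libraries. The ranges of these shares did not overlap between any pair of the 4 groups.

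**Figure D1:**
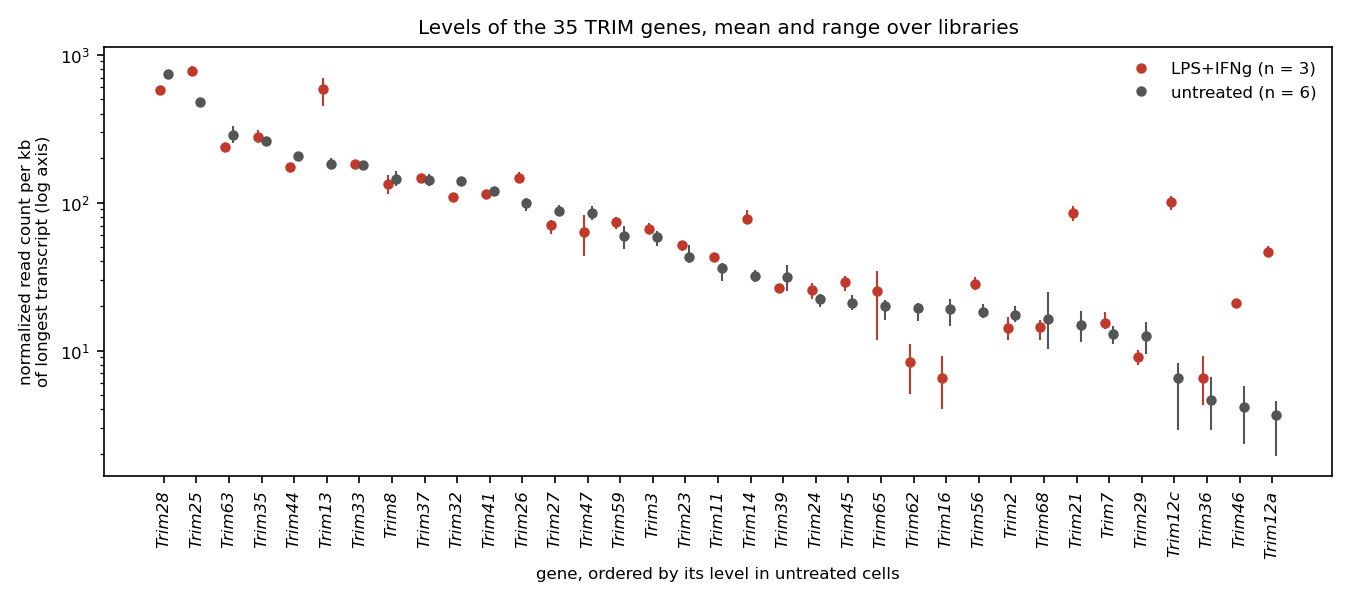
Level of each of the 35 TRIM genes, in normalized read counts per kilobase of the longest transcript on a log axis, as the mean (point) and the lowest to highest library (line) in LPS+IFNg (n = 3) and untreated (n = 6) cells, ordered by the untreated mean. Trim13, Trim14, Trim21, Trim12c, Trim46 and Trim12a lie well above their untreated level under LPS+IFNg, and Trim62 and Trim16 below it.

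LPS+IFNg raised 12 TRIM genes and lowered 9 against untreated cells. The 6 with the largest increases were Trim12c, Trim12a, Trim21, Trim46, Trim13 and Trim14, each up more than 1 on the log2 scale, and Trim16 and Trim62 fell by more than 1. Calls are from limma on log2(value + 1) with a Benjamini-Hochberg adjusted p below 0.05 over 11138 tested genes, a set that includes all 35 TRIM genes. Of all tested genes, 29.5% were called higher and 29.4% lower, and 10.7% were called with a change of at least 1, against 8 of the 35 TRIM genes. Counting both directions, 60% of the TRIM genes and 58.9% of all genes were called, so the share of the family was near that of the table. With every library scaled to the same total, a step that moved the median of all genes by -0.12, the split was 10 higher and 12 lower. The family's median log2 fold change was 0.18, beside 0.00 for all genes. In whole-culture RNA, fewer cells of a kind and less RNA per cell cannot be told apart.

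Trim12c and Trim12a, which belong to the group of mouse genes that corresponds to the primate retroviral restriction factor TRIM5, rose most. Trim12c was at 413, 388 and 331 normalized read counts in the LPS+IFNg libraries, against a lowest of 10.8, a median of 26.1 and a highest of 30.8 in untreated libraries. Trim12a was at 164, 189 and 168 in LPS+IFNg libraries, against a lowest of 7.19, a median of 14.7 and a highest of 16.98 in untreated libraries. For both genes every LPS+IFNg library lay far above every untreated library. The mean of Trim12c was 15.5 times the untreated mean (log2 fold change 3.97, SE 0.25, limma adjusted p = 1.19e-10), and that of Trim12a 12.8 times (3.63, SE 0.27, adjusted p = 1.23e-09). The transcripts of Trim12a and Trim12c are 95.97% identical over 967 bases, and both are near copies of Trim5, which was not analysed here (97.09% over 928 bases for Trim12a and 94.34% over 3710 bases for Trim12c). How reads that match more than 1 of them were counted is unknown here, so the division between these genes is uncertain.

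Trim21, a cytosolic receptor for the Fc part of antibodies that marks antibody-coated viruses for degradation, was at 263, 240 and 209 normalized read counts in LPS+IFNg libraries, against a lowest of 32.1, a median of 39.7 and a highest of 51.8 in untreated libraries. The groups did not overlap, and the mean was 5.73-fold higher (log2 fold change 2.51, SE 0.17, limma adjusted p = 3.41e-10). In the IL4 libraries Trim21 was at 59.8, 39.5 and 45.8, and in the TGFb libraries at 47.6, 49.1 and 48.2. The first IL4 value lay above the untreated range and the other 5 within it.

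Trim46, a protein that bundles microtubules at the start of the axon in neurons, was near the bottom of the untreated levels. It was at 71.3, 64.5 and 70.0 normalized read counts in LPS+IFNg libraries, against a lowest of 7.55, a median of 14.6 and a highest of 18.9 in untreated libraries. All 3 LPS+IFNg libraries were above all untreated ones (log2 fold change 2.31, SE 0.29, limma adjusted p = 1.32e-06). Exons of Trim46 overlap those of Krtcap2 on the opposite strand, and the use of strand in counting is not given in the sources used here. Krtcap2 had 1383 ± 70.95 in LPS+IFNg cells and 840 ± 46.7 in untreated cells (SD, n = 3 and n = 6, log2 fold change 0.72, adjusted p = 1.46e-08), so reads of the 2 genes cannot be told apart where they overlap.

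The promoters of these 4 genes, all on the minus strand, are shown because they are the TRIM genes with a called change of at least 2 on the log2 scale. Each sequence runs 5′ to 3′ on the gene's strand over 280 bases, of which the last 30 begin at the annotated start. The sequences come from RefSeq in the build GRCm38.p6, and lie at chr7:104353320-104353599 for Trim12c, chr7:104315466-104315745 for Trim12a, chr7:102565453-102565732 for Trim21 and chr3:89245170-89245449 for Trim46. Capitals mark matches to the core of the interferon-stimulated response element, GAAANNGAA on either strand, or of the gamma-activated site, TTCNNNGAA, which reads the same on both strands.
Trim12c: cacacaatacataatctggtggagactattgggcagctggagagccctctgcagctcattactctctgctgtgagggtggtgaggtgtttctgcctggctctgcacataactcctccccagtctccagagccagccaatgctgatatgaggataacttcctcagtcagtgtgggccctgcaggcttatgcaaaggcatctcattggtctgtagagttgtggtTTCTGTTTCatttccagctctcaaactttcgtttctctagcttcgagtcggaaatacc
Trim12a: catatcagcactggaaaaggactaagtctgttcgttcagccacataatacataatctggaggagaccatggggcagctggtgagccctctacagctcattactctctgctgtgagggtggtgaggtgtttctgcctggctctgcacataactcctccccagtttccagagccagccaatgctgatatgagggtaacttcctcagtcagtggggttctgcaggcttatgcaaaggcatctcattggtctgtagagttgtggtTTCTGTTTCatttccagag
Trim21: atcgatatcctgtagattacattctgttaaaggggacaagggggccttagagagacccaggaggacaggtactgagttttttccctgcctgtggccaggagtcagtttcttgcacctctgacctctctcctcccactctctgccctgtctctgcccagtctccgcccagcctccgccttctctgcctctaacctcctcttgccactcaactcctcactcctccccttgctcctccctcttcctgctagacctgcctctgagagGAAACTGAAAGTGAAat
Trim46: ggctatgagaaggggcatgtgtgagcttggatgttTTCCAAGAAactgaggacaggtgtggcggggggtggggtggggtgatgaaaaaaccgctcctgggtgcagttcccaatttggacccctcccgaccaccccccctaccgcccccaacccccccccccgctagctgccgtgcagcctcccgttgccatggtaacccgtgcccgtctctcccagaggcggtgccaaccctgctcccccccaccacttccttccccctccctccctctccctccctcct

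The Trim12c and Trim12a promoters held the interferon motif on the strand opposite to the gene, inside a run of 63 bases that both share. Counting the annotated start as position 0, it lay at -28 to -20 in Trim12c and at 11 to 19 in Trim12a. Trim21 held 2 overlapping matches on its own strand, at 13 to 21 and 19 to 27. Trim46 has 3 promoters of alternative starts in the RefSeq table. The one shown was chosen because it alone held a match, the gamma-activated site at -215 to -207. Over windows of 300 bases, the interferon motif was found in 7 of the 36 promoters of the 25 TRIM genes with an entry (19.4%), against 8.56% of all 32851 promoters in the RefSeq table and 7.22% of the 10882 promoters of genes in the expression table. The 7 genes were Trim2, Trim7, Trim12a, Trim12c, Trim21, Trim25 and Trim26. Of these, LPS+IFNg raised Trim12a, Trim12c, Trim21, Trim25 and Trim26, lowered Trim2, and did not bring Trim7 past the threshold. In the whole family 12 of 35 genes were called higher, beside 29.5% of all tested genes. TRIM genes with no entry were not searched, and a link of motif and call was not tested. On the sense strand alone the motif was found in 1 of the 36, that of Trim21, and the family's share of 2.78% was then under the 4.48% of all promoters. The gamma-activated site was found in 2 of the 36 promoters, those of Trim45 and Trim46 (5.56%, against 8.3% of all promoters and 6.7% of those of genes in the expression table). A SMAD-type motif, CAGACA on either strand, was found in 5 of the 36 promoters, of Trim2, Trim32, Trim62 and Trim68 (13.9%, against 21% of all promoters and 15.5% of those of genes in the expression table). A match is a run of letters and not a bound site.

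**Figure D2:**
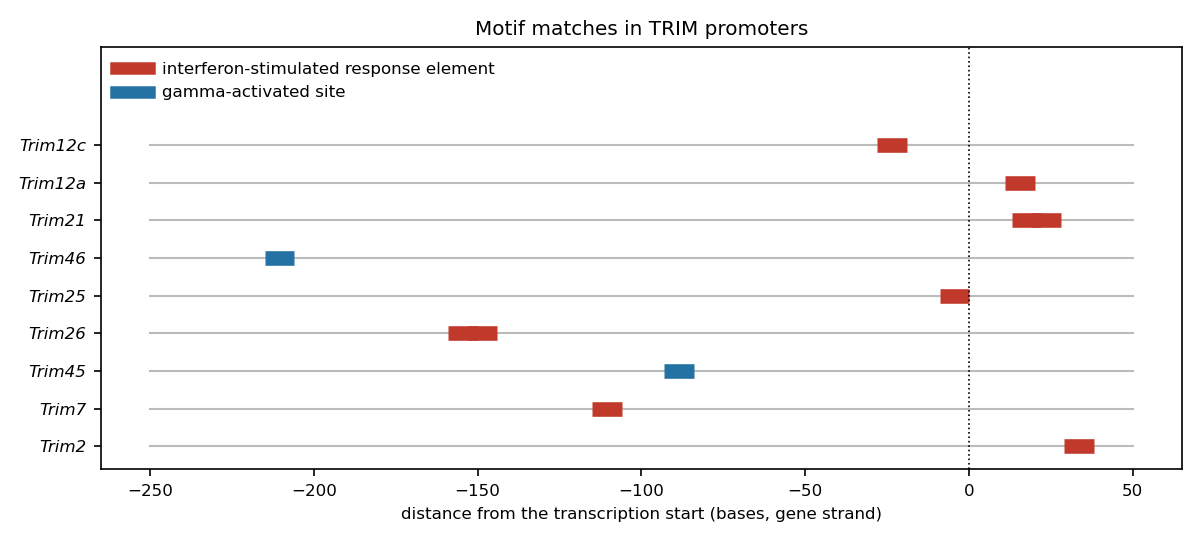
Position of matches to the interferon-stimulated response element (red) and the gamma-activated site (blue) in the promoters of TRIM genes that hold one, in bases from the annotated start on the gene's strand. The matches of Trim12a and Trim21 lie just after the start, those of Trim12c and Trim25 just before it, and that of Trim46 farthest upstream, at -215.

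Trim13 and Trim14 completed the group with increases above 1. Trim13, a ligase anchored in the membrane of the endoplasmic reticulum, was at 1119, 1003 and 724 normalized read counts in LPS+IFNg libraries, against a lowest of 271, a median of 288 and a highest of 322.5 in untreated libraries. Its lowest LPS+IFNg value was that of replicate 3 and was still above every untreated library (log2 fold change 1.67, SE 0.10, limma adjusted p = 9.8e-11). Trim13 has a processed pseudogene, Gm9359, that is 95.94% identical over 1230 bases. Trim14, a member with no RING domain that acts at mitochondria as an adaptor of MAVS, was at 190, 236 and 192 in LPS+IFNg libraries, against a lowest of 77.7, a median of 83.45 and a highest of 92.4 in untreated libraries. The groups did not overlap (1.27, SE 0.11, adjusted p = 1.9e-08). Exons of Trim14 overlap those of Nans on the opposite strand. Nans went the other way, with 669 ± 54.5 in LPS+IFNg cells and 817 ± 28.7 in untreated cells (log2 fold change -0.29).

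Trim25 rose as well, and was at 4093, 4277 and 4648 normalized read counts in LPS+IFNg libraries, against a lowest of 2561, a median of 2722 and a highest of 2736 in untreated libraries. The increase of 1.62-fold (log2 fold change 0.69, SE 0.04, limma adjusted p = 1.64e-10) was modest in size, but the groups lay far apart for their spread. Trim56 and Trim26, ligases of the sensing pathway that act on STING and on IRF3, also rose. Trim56 averaged 263 ± 27.4 in LPS+IFNg cells and 168 ± 13.1 in untreated cells (log2 fold change 0.64), and Trim26 averaged 638 ± 54.4 in LPS+IFNg cells and 431 ± 29.7 in untreated cells (0.56). For both, every LPS+IFNg library was above every untreated one.

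Of the smaller increases, Trim45, which carries a filamin-type domain, averaged 134 ± 15.2 in LPS+IFNg cells and 96.3 ± 8.39 in untreated cells (log2 fold change 0.47, limma adjusted p = 0.00127). Trim59, a membrane-anchored ligase, averaged 218 ± 20.97 in LPS+IFNg cells and 175 ± 19.8 in untreated cells, for a log2 fold change of 0.32 (adjusted p = 0.0171). Trim23, which has a GTPase domain of the ARF type, averaged 219 ± 17.7 in LPS+IFNg cells and 184 ± 19.0 in untreated cells (0.25, adjusted p = 0.0488). The groups overlapped for both. The call of Trim59 was lost without LPS+IFNg replicate 1 or 3, with an adjusted p of 0.0854 or 0.0505. That of Trim23 was lost without LPS+IFNg replicate 1 or 3 (0.174 and 0.0987) and without any of untreated replicates 2 to 6, where the adjusted p was between 0.0624 and 0.0891. Both calls were also lost with every library scaled to the same total (adjusted p = 0.136 for Trim59 and 0.299 for Trim23) and with quantile normalization (0.0718 for Trim59 and 0.181 for Trim23). Trim59 has pseudogene copies, the closest 94.11% identical over 1171 bases.

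Trim16 and Trim62 fell most under LPS+IFNg. Trim16, which has no RING domain and in human cells links damaged endosomes to autophagy, was at 24.0, 36.1 and 15.8 normalized read counts in LPS+IFNg libraries, against a lowest of 57.2, a median of 73.5 and a highest of 86.9 in untreated libraries. Trim62, a ligase of the fungal-sensing adaptor CARD9, was at 34.1, 41.3 and 19.2 in LPS+IFNg libraries, against a lowest of 59.6, a median of 73.1 and a highest of 79.2 in untreated libraries. Both genes were lowest in replicate 3, and both were below every untreated library in all 3 replicates. The log2 fold change was -1.59 for Trim16 (SE 0.21, limma adjusted p = 2.82e-06) and -1.23 for Trim62 (SE 0.19, adjusted p = 1.44e-05). Without any 1 library it lay between -1.87 and -1.30 for Trim16 and between -1.45 and -0.92 for Trim62, and both calls held. Exons of Trim16 overlap those of Fbxw10 on the same strand, so reads there may go to either. Fbxw10 was not analysed here.

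Trim28 was at 1870, 1966 and 1765 normalized read counts in LPS+IFNg libraries, against a lowest of 2303, a median of 2404 and a highest of 2427 in untreated libraries. All LPS+IFNg values were lower than all untreated ones, and the mean fell by 0.36 on the log2 scale (SE 0.05, limma adjusted p = 2.18e-06). Trim32, a ligase with an NHL repeat domain, averaged 348 ± 10.5 in LPS+IFNg cells and 448 ± 22.3 in untreated cells, without overlap (log2 fold change -0.36). Trim44, a member in which a zinc finger of ubiquitin-specific proteases replaces the RING, averaged 972 ± 10.7 in LPS+IFNg cells and 1167 ± 48.7 in untreated cells (-0.26). Trim63 averaged 450.5 ± 20.7 in LPS+IFNg cells and 539 ± 57.6 in untreated cells (-0.25). These too did not overlap.

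Trim2, Trim27 and Trim47 were called lower with all libraries and lost the call without LPS+IFNg replicate 3. The log2 fold change was -0.30 for Trim2, -0.32 for Trim27 and -0.48 for Trim47 with all libraries (limma adjusted p = 0.043, 0.0107 and 0.0207). Without replicate 3 it was -0.17, -0.23 and -0.24 (adjusted p = 0.269, 0.0645 and 0.188). The call of Trim2 was also lost without LPS+IFNg replicate 1 (0.0901) and without untreated replicate 1, 3 or 6 (0.0834, 0.0555 and 0.0688), as well as with edgeR (0.0518), DESeq2 (0.0769) and only the 2 groups compared (0.0609). The same library decided 2 members that were not called. Trim65, a ligase of the RNA sensor MDA5, was at 139, 119 and 47.4 normalized read counts in LPS+IFNg libraries, against a lowest of 64.7, a median of 83.0 and a highest of 88.3 in untreated libraries. Its first 2 LPS+IFNg libraries were above every untreated library and replicate 3 was below them all. Its log2 fold change was 0.19 (adjusted p = 0.501) with replicate 3 and 0.66 (adjusted p = 0.000707) without it. Trim65 and Trim47 are neighbours on chromosome 11 whose exons overlap on the same strand, so reads there may go to either. Trim3, a brain-enriched NHL ligase, had a log2 fold change of 0.18 (adjusted p = 0.0929) with replicate 3 and 0.24 (adjusted p = 0.0438) without it.

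**Figure D3:**
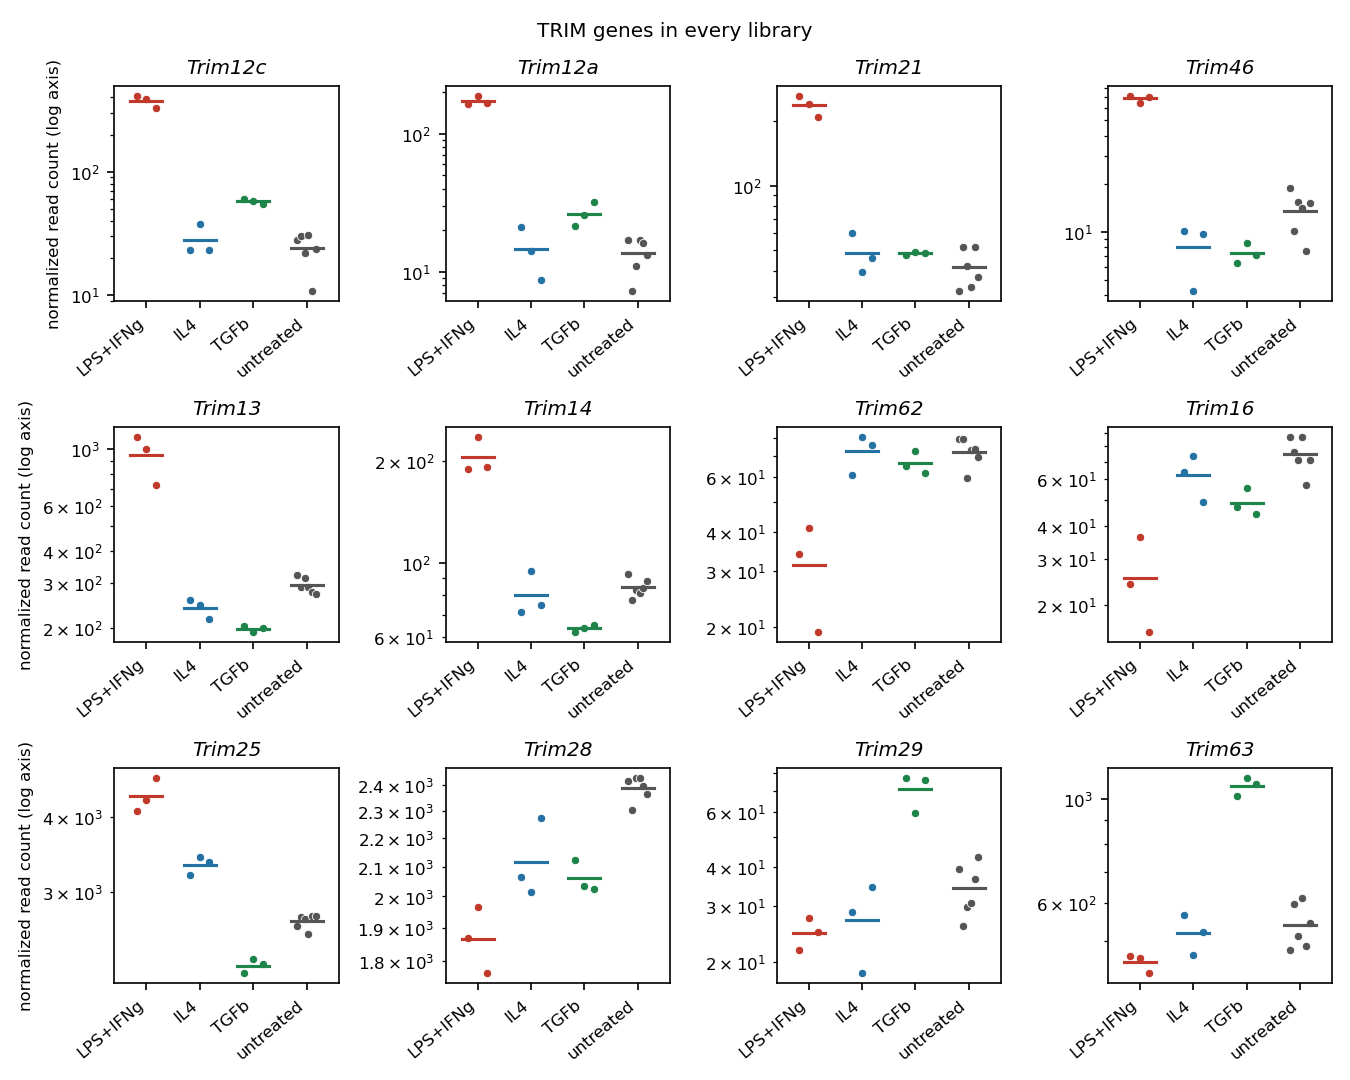
Normalized read count of 12 TRIM genes in every library (points, log axes that differ between panels) with the group mean (line), for LPS+IFNg, IL4 and TGFb (n = 3 each) and untreated cells (n = 6). Trim12c, Trim12a, Trim21, Trim46, Trim13 and Trim14 are high under LPS+IFNg, Trim62 and Trim16 low under LPS+IFNg, and Trim29 and Trim63 high under TGFb.

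IL4 changed few TRIM genes, and by little. Trim25 and Trim35 rose, and Trim59, Trim45 and Trim28 fell. The 2 called higher and 3 called lower of 35 stood beside 9.89% and 7.33% of all tested genes, and the family median was -0.07, beside 0.00 for all genes. All called TRIM genes changed by less than 1 on the log2 scale, a size that 1.02% of all tested genes reached with a call. With every library scaled to the same total, 2 TRIM genes were called higher and 5 lower.

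Trim25 was at 3204, 3436 and 3365 normalized read counts in IL4 libraries, above the untreated maximum of 2736 in each (log2 fold change 0.31, SE 0.04, limma adjusted p = 6.9e-05). Trim35, which binds pyruvate kinase M2 in human liver cancer cells, was at 1130, 1091 and 1132 in IL4 libraries, against a lowest of 885, a median of 966 and a highest of 981 in untreated libraries. The IL4 values were all higher (0.23, SE 0.06, adjusted p = 0.00815). Trim59 was at 142, 110 and 123 in IL4 libraries, against a lowest of 143, a median of 176 and a highest of 204 in untreated libraries. Its highest IL4 library lay just under the lowest untreated one (-0.48, SE 0.11, adjusted p = 0.00402).

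Trim45 was at 84.9, 73.4 and 71.6 in IL4 libraries, against a lowest of 86.3, a median of 96.4 and a highest of 109 in untreated libraries. The groups did not overlap, but the call (log2 fold change -0.33, limma adjusted p = 0.0484) was at the threshold and was lost without either of IL4 replicates 2 and 3, with an adjusted p of 0.173 and 0.184, and without any of untreated replicates 1, 3, 5 and 6 (adjusted p = 0.0736, 0.0953, 0.0624 and 0.0825). It was lost as well with quantile normalization (0.0615), with DESeq2 (0.074) and with only the 2 groups compared (0.0586). Trim28 averaged 2117 ± 137 in IL4 cells and 2388 ± 48.0 in untreated cells (-0.18, adjusted p = 0.0117). Without IL4 replicate 1 or 2 the adjusted p was 0.0629 or 0.105.

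TGFb raised 6 TRIM genes and lowered 10. Trim12c and Trim29 rose by more than 1 on the log2 scale, and Trim63, Trim12a, Trim3 and Trim33 rose by less. Of all tested genes, 24.1% were called higher, 23.4% lower, and 5.05% with a change of at least 1, against 2 of 35 TRIM genes. The family median was 0.02, beside 0.01 for all genes.

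Trim63 and Trim29 were higher under TGFb than in each of the other 3 groups. Trim63, the ligase that degrades sarcomere proteins in wasting muscle, was at 1015, 1108 and 1072 normalized read counts in TGFb libraries, against a lowest of 477, a median of 529 and a highest of 616 in untreated libraries. Every TGFb library lay far above every untreated one (log2 fold change 0.99, SE 0.08, limma adjusted p = 1.18e-08). Trim63 was higher under TGFb than under LPS+IFNg or IL4 in direct comparison too, with log2 differences of -1.24 for LPS+IFNg minus TGFb and -1.04 for IL4 minus TGFb (adjusted p = 1.22e-09 and 5.23e-08). Trim29, which has no RING and restrains interferon responses in mouse airway macrophages, was at 77.2, 59.8 and 76.1 in TGFb libraries, against a lowest of 25.9, a median of 33.7 and a highest of 42.98 in untreated libraries. The groups did not overlap (1.04, SE 0.20, adjusted p = 0.000375), and the direct differences were -1.48 for LPS+IFNg minus TGFb and -1.39 for IL4 minus TGFb (adjusted p = 2.36e-05 and 0.000114). With Tmem119 and Cx3cr1 also high in TGFb libraries, a link of these markers to the change of either gene was not tested.

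Trim12c was at 59.8, 57.6 and 55.3 normalized read counts in TGFb libraries, above the untreated maximum of 30.8 in each (log2 fold change 1.28, SE 0.25, limma adjusted p = 0.000369). Trim12a was at 21.5, 25.6 and 31.9, also above its untreated maximum of 16.98 (0.94, SE 0.27, adjusted p = 0.00768). Without TGFb replicate 3 the adjusted p of Trim12a was 0.0534. Both genes stayed far lower under TGFb than under LPS+IFNg, with a log2 difference of 2.69 for LPS+IFNg minus TGFb in each (SE 0.29 for Trim12c and 0.31 for Trim12a).

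Trim33, also called TIF1 gamma, is a ligase of SMAD4 and a partner of SMAD2 and SMAD3 in TGFb signalling. It was at 1942, 1931 and 1900 normalized read counts in TGFb libraries, against a lowest of 1522, a median of 1568 and a highest of 1672 in untreated libraries. The TGFb values were close to each other and all higher (log2 fold change 0.28, SE 0.04, limma adjusted p = 4.57e-05). Trim33 averaged 1627 ± 43.6 in LPS+IFNg cells and 1560 ± 80.4 in IL4 cells, which overlapped the untreated range, and both were lower than TGFb in direct comparison (LPS+IFNg minus TGFb -0.24, IL4 minus TGFb -0.30). Its relatives Trim28 and Trim24 carry the same PHD finger and bromodomain. Under TGFb Trim28 was at 2121, 2036 and 2024 in TGFb libraries, below the untreated minimum of 2303 in each (-0.21, adjusted p = 0.00086). Trim24, a coactivator of nuclear receptors, averaged 104 ± 5.94 in TGFb cells and 89.55 ± 6.01 in untreated cells. Its groups did not overlap, but it missed the threshold (0.22, adjusted p = 0.159). Trim3 averaged 217 ± 14.2 in TGFb cells and 178 ± 14.5 in untreated cells (0.29, adjusted p = 0.0122, or 0.0719 without TGFb replicate 2 and 0.076 with every library scaled to the same total).

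Among the members lowered by TGFb, Trim13 was at 203, 192 and 200 normalized read counts in TGFb libraries, below the untreated minimum of 271 in each (log2 fold change -0.56, SE 0.10, limma adjusted p = 0.000222). Trim14 was at 62.1, 64.0 and 65.1, also below its untreated minimum of 77.7 (-0.40, SE 0.11, adjusted p = 0.00812). Trim37, a ligase of centrosomes and peroxisomes, averaged 623 ± 33.1 in TGFb cells and 802 ± 63.9 in untreated cells, without overlap (-0.36, adjusted p = 7.85e-05). Trim25 was at 2200, 2320 and 2277 in TGFb libraries, each below the untreated minimum of 2561 (-0.24, adjusted p = 0.000185). Trim59 averaged 130 ± 1.28 in TGFb cells and 175 ± 19.8 in untreated cells (-0.42, adjusted p = 0.00336).

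The other 4 calls under TGFb did not hold in every fit. Trim46 was at 6.39, 8.54 and 7.16 normalized read counts in TGFb libraries and overlapped the untreated libraries (log2 fold change -0.75, limma adjusted p = 0.0376). Leaving out 1 library at a time ended its call for 7 of 9 libraries, with an adjusted p between 0.0118 and 0.13 over the 9. The 7 were the TGFb libraries and untreated replicates 1, 3, 4 and 6, and with only the 2 groups compared the adjusted p was 0.0624. Trim44 changed by -0.13 (adjusted p = 0.0381), and its call ended for 6 of the 9, untreated replicates 2 to 5 and TGFb replicates 1 and 2, with a highest adjusted p of 0.149. Trim16 was at 47.02, 55.5 and 44.3 in TGFb libraries, under the untreated minimum of 57.2 in each (-0.59, adjusted p = 0.0253), but its adjusted p was 0.0783 without TGFb replicate 1 and 0.1 without replicate 3. Trim27, which acts in endosomal sorting, changed by -0.28 (adjusted p = 0.0316), by -0.25 (adjusted p = 0.0637) without untreated replicate 2 and by -0.11 (adjusted p = 0.356) without TGFb replicate 2. With all libraries, Trim27 and Trim44 also lost the call with edgeR (adjusted p = 0.0856 for Trim27 and 0.0621 for Trim44) and with DESeq2 (0.0737 for Trim27 and 0.0763 for Trim44).

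**Figure D4:**
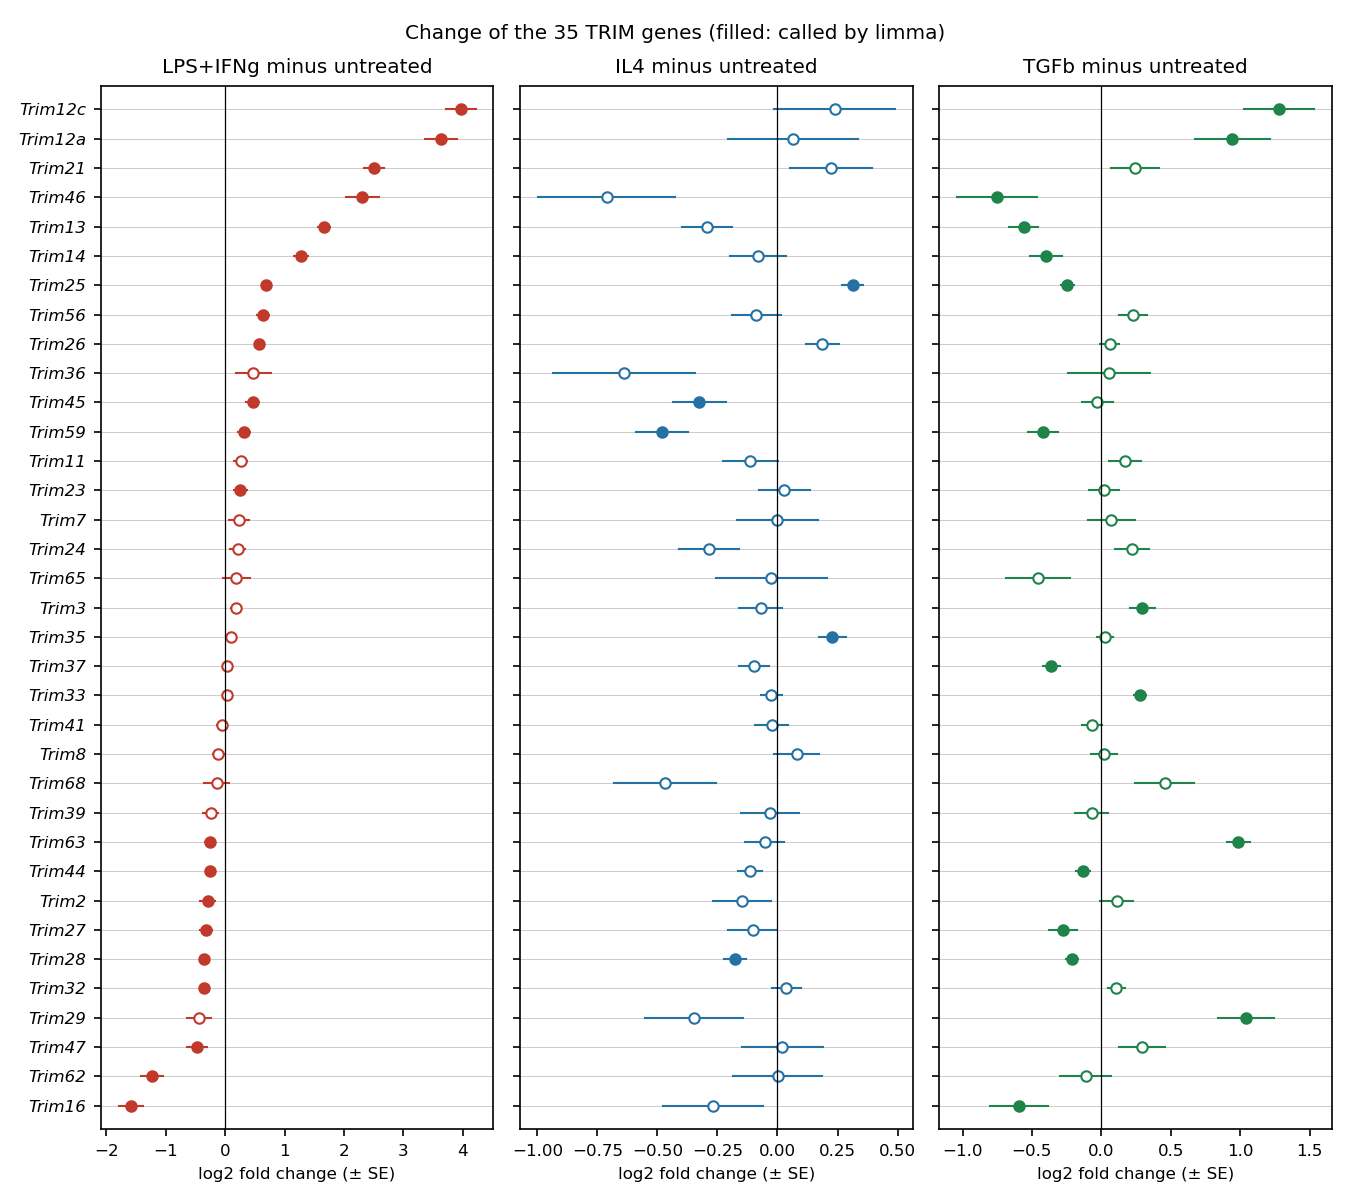
Log2 fold change (point) with its standard error (line) of the 35 TRIM genes for LPS+IFNg, IL4 and TGFb, each against untreated cells, ordered by the LPS+IFNg value, with filled points for genes called by limma at an adjusted p below 0.05. The horizontal scales differ between the panels, and the IL4 changes are the smallest, with Trim25 and Trim35 called higher and Trim59, Trim45 and Trim28 lower.

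The 3 comparisons share the untreated libraries, so their values are set side by side here without a count of agreement. Trim28 fell under each stimulus, with log2 fold changes of -0.36 for LPS+IFNg, -0.18 for IL4 and -0.21 for TGFb. Trim25 changed by 0.69 under LPS+IFNg, 0.31 under IL4 and -0.24 under TGFb. Trim59 changed by 0.32 under LPS+IFNg, -0.48 under IL4 and -0.42 under TGFb. Trim63 changed by -0.25 under LPS+IFNg and 0.99 under TGFb, and its IL4 value of -0.05 was not called. Trim7, Trim8, Trim11, Trim24, Trim36, Trim39, Trim41, Trim65 and Trim68 were not called against untreated cells under any of the stimuli. Trim11, however, lay above all untreated libraries in each LPS+IFNg library, at 152 ± 6.99 in LPS+IFNg cells and 128 ± 14.6 in untreated cells (log2 fold change 0.26, limma adjusted p = 0.0607). A missed threshold does not show that such a gene was equal between the groups.

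Comparing the stimuli directly, LPS+IFNg minus IL4 gave 15 TRIM genes higher and 6 lower, beside 28.8% and 28.8% of all tested genes. LPS+IFNg minus TGFb gave 13 higher and 10 lower, beside 31.9% and 30.8%. Without LPS+IFNg replicate 3, Trim44 and Trim47, besides Trim36 below, lost the call against IL4 (limma adjusted p = 0.0564 and 0.201). Trim2, Trim28 and Trim68 then lost it against TGFb (0.0952, 0.0833 and 0.138). IL4 minus TGFb gave 3 higher and 9 lower, beside 20.7% and 19% of all genes. In the last comparison Trim25 stood out among those higher under IL4 (log2 difference 0.56, SE 0.05, limma adjusted p = 8.26e-08), and Trim35 and Trim37 were the others. The call of Trim35 (0.20, adjusted p = 0.0179) was lost without any of IL4 replicates 1 and 3 and TGFb replicates 1 and 2, where the adjusted p was between 0.0504 and 0.0639. Trim46 was 3.02 higher on the log2 scale under LPS+IFNg than under IL4 and 3.06 higher than under TGFb (SE 0.33 each). Trim11, Trim24 and Trim36, not called against untreated cells, were higher under LPS+IFNg than under IL4. The call of Trim11 was lost without LPS+IFNg replicate 2 or IL4 replicate 1 (limma adjusted p = 0.0596 and 0.143). Likewise, Trim65 was called higher and Trim68 lower under LPS+IFNg than under TGFb. Leaving out 1 library could end either call, with an adjusted p of up to 0.261 for Trim65 and 0.138 for Trim68. Trim24 averaged 104 ± 12.4 in LPS+IFNg cells and 74.1 ± 14.6 in IL4 cells (0.50, adjusted p = 0.00655), and without IL4 replicate 3 the adjusted p was 0.0523. Trim36, a microtubule-associated ligase, averaged 29.8 ± 11.3 in LPS+IFNg cells and 13.3 ± 5.23 in IL4 cells (1.11, adjusted p = 0.00934, and 0.0546 or 0.0605 without LPS+IFNg replicate 3 or IL4 replicate 2). Trim68 was lower under IL4 than under TGFb, with 27.1 ± 2.002 in IL4 cells and 52.4 ± 4.57 in TGFb cells (-0.92, adjusted p = 0.0057).

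Domain classes were assigned from textbook layout, and 15 genes were placed with a RING and a PRY-SPRY domain. Whether the mouse protein of each, Trim12a among them, holds both domains was not checked. These 15 genes ranged most widely under LPS+IFNg, between -1.23 for Trim62 and 3.97 for Trim12c, with 5 higher, 3 lower and 7 not called. Trim13 and Trim59, the members with a transmembrane segment, were both called higher under LPS+IFNg and both lower under TGFb. Of the 3 NHL genes, Trim2 and Trim32 were called lower under LPS+IFNg and Trim3 higher under TGFb. The 4 members with no RING moved separately. Under LPS+IFNg Trim14 rose, Trim16 and Trim44 fell, and Trim29 had a log2 fold change of -0.44 (limma adjusted p = 0.0701). Under TGFb Trim29 was called higher and Trim14, Trim16 and Trim44 lower. As given above, the calls of Trim2 and Trim59 under LPS+IFNg did not hold in every fit. Nor did those of Trim3, Trim16 and Trim44 under TGFb. With 1 to 15 members a class, these counts describe the genes and support no statement on a class.

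The family is spread over 13 chromosomes, with 8 members on chromosome 11, 6 on chromosome 7 and 5 on chromosome 3. Besides Trim47 and Trim65, 3 pairs of members lie within 500000 bases of each other. Trim12c and Trim12a (chr7:104299894-104353362) were both raised by LPS+IFNg. Trim21 rose while its neighbour Trim68 (chr7:102557921-102687327) averaged 34.4 ± 5.50 in LPS+IFNg cells and 39.3 ± 12.002 in untreated cells (log2 fold change -0.14, limma adjusted p = 0.579). Trim41 and Trim7 (chr11:48806404-48852209) were both not called, with log2 fold changes of -0.06 and 0.24. These positions are from GENCODE M21 on GRCm38, where exons of 9 TRIM genes overlap those of another gene, a protein-coding one for 7. Among them, exons of Trim41 overlap those of Rack1 on the opposite strand, and Rack1 was not analysed here under that symbol.

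Other genes of the pathways in which TRIM proteins work were read from the same fit. Their counts stand beside 29.5% of all tested genes called higher and 29.4% lower under LPS+IFNg, 9.89% higher and 7.33% lower under IL4, and 24.1% higher and 23.4% lower under TGFb. All 5 genes of conjugation with ISG15, the interferon-induced ubiquitin-like protein, were called higher under LPS+IFNg, with a median log2 fold change of 3.07. Isg15 itself averaged 1503 ± 165 normalized read counts in LPS+IFNg cells and 20.2 ± 4.96 in untreated cells (log2 fold change 6.18, SE 0.23). Herc6, the mouse ligase of ISG15, rose by 3.81 on the log2 scale, Ube2l6, its conjugating enzyme, by 3.07 and the ISG15 protease Usp18 by 2.94. Under IL4 these 5 genes were not called, with a lowest adjusted p of 0.0648, and under TGFb 1 was higher and 1 lower.

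Of 16 tested genes of nucleic acid sensing, 12 were called higher under LPS+IFNg and the other 4 were not called, with a median of 0.62. The interferon regulatory factor Irf7 averaged 828 ± 87.6 in LPS+IFNg cells and 10.1 ± 2.55 in untreated cells (log2 fold change 6.26). Ddx58, which encodes the Trim25 target RIG-I, averaged 55.1 ± 8.12 in LPS+IFNg cells, against a mean of 1.71 in untreated cells that lies close to the lowest value the table holds. Dhx58, a relative of RIG-I, rose by 2.95 and the kinase Ikbke by 2.13. Zc3hav1, the antiviral protein ZAP that works with Trim25, rose by 1.49. IL4 raised 2 of the 16 and lowered 1, and TGFb raised 4 and lowered 2. Rnf135, a RING ligase outside the TRIM symbols that also modifies RIG-I, averaged 39.4 in LPS+IFNg cells, 39.05 in TGFb cells and 16.4 in untreated cells. Its log2 fold change was 1.22 for both LPS+IFNg and TGFb. In IL4 cells it averaged 21.9 and was not called (0.41, limma adjusted p = 0.174).

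Of the 13 ubiquitin-activating and conjugating enzymes that TRIM ligases draw on, LPS+IFNg raised 4 and lowered 2, IL4 raised 2, and TGFb raised 1 and lowered 4. Ube2e2 had the largest change, with a mean of 252 in LPS+IFNg cells and 101 in untreated cells (log2 fold change 1.33, limma adjusted p = 1.14e-07). Of 13 partners of Trim28, Trim24 and Trim33 in silencing and SMAD signalling, LPS+IFNg raised 3 and lowered 5, IL4 raised 2 and lowered 1, and TGFb raised 3 and lowered 6. Skil and Ski, SMAD corepressors and known targets of TGFb signalling, rose by 4.47 and 1.61 on the log2 scale under TGFb. Skil averaged 759 ± 12.1 in TGFb cells and 33.8 ± 7.03 in untreated cells. LPS+IFNg raised Skil too, by 1.78 (limma adjusted p = 7.8e-09), and lowered Ski, with a log2 fold change of -0.52. Of TRIM proteins with other symbols, Pml, the organiser of nuclear bodies, averaged 741 in LPS+IFNg cells and 219 in untreated cells (1.72, adjusted p = 6.26e-10), and Mid1, a microtubule-bound ligase, averaged 65.97 in TGFb cells and 86.8 in untreated cells (-0.40, adjusted p = 0.0359).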

How the data were processed

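Libraries were made with a TruSeq RNA kit from TRIZOL-extracted total RNA, per the labels' protocols. Per the submitters' processing notes, TopHat2 2.0.3, Partek 6.6, R 3.0.2 and DESeq2 were used with the build mm10. The annotation, the counting rule and the use of strand are not given in the sources used here. The deposited table holds 1 normalized signal (a normalized read count) for every gene in each library. As inferred from the values, the authors scaled each library's reads by 1 factor and lifted anything under 1 to 1. Of the values above 1, 100% came out as whole reads within 0.01 reads plus an allowance for rounding that grew with the value. The check is therefore weak for the highest values. A value at 1 was held by 276 genes, none of them a TRIM gene. The lowest gene maximum was 11.1, so TRIM genes low in every library were not analysed here.

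The TRIM genes, domain classes, partner lists and motifs were chosen with earlier results of these data known. Partner lists and cell type markers were matched by symbol. The values of 1 marker list are not reported here. The main result was a single limma fit (version 3.58.1, R 4.3.3) of all 15 libraries with 6 contrasts and a trended prior. It used log2(value + 1), on which low genes show too small a change, and kept genes that reached 10 in 3 or more libraries. Alternatives were other scalings, pseudocounts and filters, edgeR 4.0.16 (quasi-likelihood) and DESeq2 1.42.0 on recovered reads, only the 2 groups compared, and libraries left out. The limma fit was tested on simulated data for LPS+IFNg minus untreated, and the edgeR and DESeq2 fits were not. Values in every library are given for TRIM genes called with a change of at least 1 on the log2 scale under any stimulus, for the 3 with the highest level per kilobase in untreated cells and for the leading called genes of IL4 and TGFb. Trim33, Trim65 and a few others are given in full in addition, chosen after their values were seen. Partner genes are named where called with a change of at least 1, at most 4 per list by size, with Mid1, Rnf135, Zc3hav1 and the LPS+IFNg value of Ski added after their values were seen. Replicate numbers follow accession order and only name libraries, and no pair of libraries agreed within sampling noise. Near copies were sought with blastn 2.17.0 in GENCODE M21 transcripts.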

Additional observations from a re-analysis of the deposited data

Results flagged for a closer look

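In 4 of 35 TRIM genes, 1 untreated library lay apart from the other 5 by Dixon's test at the 95% level, which flags about 1 in 20 groups by chance. Trim23 was at 219 normalized read counts in untreated replicate 1, where the group median was 181. Trim27 was at 419 in untreated replicate 2, where the group median was 371. Trim35 was at 885 in untreated replicate 1, where the group median was 966. Trim65 was at 64.7 in untreated replicate 2, where the group median was 83.0.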

How the results depend on the processing

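No paired analysis was possible because the labels number every library differently and the groups share no replicate numbers. Over the alternatives, 16 of the 21 TRIM calls for LPS+IFNg, 3 of 5 for IL4 and 10 of 16 for TGFb against untreated were kept in each one, as were 14 of 21 for LPS+IFNg minus IL4, 19 of 23 for LPS+IFNg minus TGFb and 8 of 12 for IL4 minus TGFb, and no called value changed sign. Leaving out 1 library at a time gave 18 to 22 called TRIM genes for LPS+IFNg, 4 to 6 for IL4 and 13 to 15 for TGFb against untreated, 18 to 20 for LPS+IFNg minus IL4, 19 to 22 for LPS+IFNg minus TGFb and 8 to 12 for IL4 minus TGFb. Without the 3 libraries with the fewest reads (untreated replicates 4 and 1 and TGFb replicate 2) the IL4 count was 3 in place of 5, with fewer libraries in the fit. Over all alternatives, 7 uncalled genes gained a call for LPS+IFNg, 5 for IL4 and 4 for TGFb against untreated. With every library scaled to the same total, Trim29, Trim39 and Trim41 were called lower under LPS+IFNg (limma adjusted p = 0.0254, 0.0128 and 0.0315). Trim13 and Trim44 were then called lower under IL4 (0.0385 and 0.0205). Trim56 was called higher under TGFb with edgeR (0.0288) and DESeq2 (0.0413). Some uncalled genes passed the threshold without 1 library. Under LPS+IFNg these were Trim3 and Trim65 without LPS+IFNg replicate 3 (adjusted p = 0.0438 and 0.000707), Trim29 and Trim39 without untreated replicate 2 (adjusted p = 0.0377 and 0.0295) and Trim35 without LPS+IFNg replicate 1 (0.0297). Under IL4 they were Trim24 without IL4 replicate 2 (0.0495), Trim46 without untreated replicate 5 (0.0406) and Trim68 without untreated replicate 2 (0.0457), and under TGFb Trim47 and Trim56 without TGFb replicate 2 (0.0415 and 0.0484), Trim56 without untreated replicate 4 (0.0361) and Trim68 without untreated replicate 3 (0.0189). The interferon motif was found in 7 TRIM genes on either strand and in 1 on the sense strand. The levels of Trim12a, Trim46 and Trim36 rest on few reads in the shallow libraries, which limits their precision.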
